A study of Mus musculus with 11 samples.

Results

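The 9 genes described here, Cps1, Otc, Ass1, Asl, Sds, Gls2, Hal, Cyp2f2 and Hsd17b13, are urea cycle and periportal hepatocyte genes, and their expression levels were read from 12 probes of the 56605 on each Agilent 1-colour array. All probes whose RefSeq accession named one of the 9 genes were taken. The arrays measured whole liver of C57Bl6/J male mice that were 8 weeks old when they were given AAV8 vectors intraperitoneally, with RNA taken 5 days later. The total dose per mouse was 6e+11 viral genomes in all groups. In the GFP group (3 arrays) it was only the vector for green fluorescent protein. The NICD1 group (3 arrays) received 3e+11 of a vector for the intracellular domain of Notch1 and 3e+11 of the GFP vector. The NICD2 group (3 arrays) received 3e+11 of a vector for the intracellular domain of Notch2 and 3e+11 of the GFP vector. The NICD1&2 group (2 arrays) received 3e+11 each of both NICD vectors, and the GFP vector was absent. All vectors used the CMV promoter, which is not limited to hepatocytes, and the mice carried no engineered allele. The comparison asked whether active Notch1 or Notch2, alone or together, shifted this hepatocyte programme.

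Blood enters the liver lobule at the portal vein and leaves at the central vein, and hepatocytes divide their work along that path. Periportal hepatocytes take up amino acids, break them down and turn the ammonia into urea, while perivenous hepatocytes catch the ammonia that escapes as glutamine. Wnt/β-catenin signalling maintains the perivenous programme, and glucagon and amino acid supply raise many of the periportal enzymes. Notch receptors are cut on activation, and the freed intracellular domain joins RBPJ on DNA.

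No member differed from GFP at the 5% level after adjustment for all probes, and none met the definition of an altered gene that the study used for these arrays, an unadjusted P under 0.15 together with a fold change over 1.8. Sds had the fold nearest to that definition, at 1.74-fold of GFP in NICD2 livers. Hsd17b13 was 1.21-fold of GFP in NICD2 and 1.31-fold in NICD1&2 livers, and Hal was 0.687-fold in NICD1&2 livers. Cps1 varied least: its probe spanned 0.24 on the log2 scale over all 11 arrays.

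All 12 probes were well above background on 11 of 11 arrays, so no value of a member below is a bound. Levels are log2 of the scanner signal less the 75th percentile of the array, and they compare arrays, not genes. Within groups the members varied little, with a median SD of 0.105 on this scale (range 0.072 to 0.19) against 0.216 over the 36055 probes tested. Nothing in the labels says how the arrays relate beyond being separate livers of one group, so the p-values measure the spread between these arrays. Since the RNA is from whole liver, fewer cells expressing a gene and less RNA per cell cannot be told apart.

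The promoter is the one sequence at hand for these genes, and a RefSeq promoter window (250 bases before to 50 after the start, GRCm38.p6) was found for 5 of the 9 members, Hal, Hsd17b13, Cyp2f2, Ass1 and Otc. The pair printed here belongs to the member with the lowest level in NICD1&2 livers relative to GFP and to a member that was higher there. Capitals mark a match to a motif on either strand. The motifs searched were GTGGGAA for RBPJ, ATCAAAG for TCF/LEF (the partners of β-catenin), TTGCNNAA for C/EBP, TGACGTCA for the cAMP response element and CAAAGTCCA for HNF4.
Hal, chr10:93488518-93488817, plus strand: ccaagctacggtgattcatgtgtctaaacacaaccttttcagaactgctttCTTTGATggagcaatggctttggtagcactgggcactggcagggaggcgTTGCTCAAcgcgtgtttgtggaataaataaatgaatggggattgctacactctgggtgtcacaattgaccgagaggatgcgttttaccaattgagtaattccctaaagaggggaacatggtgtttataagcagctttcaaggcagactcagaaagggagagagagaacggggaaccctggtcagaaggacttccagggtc
Hsd17b13, chr5:103977339-103977638, minus strand: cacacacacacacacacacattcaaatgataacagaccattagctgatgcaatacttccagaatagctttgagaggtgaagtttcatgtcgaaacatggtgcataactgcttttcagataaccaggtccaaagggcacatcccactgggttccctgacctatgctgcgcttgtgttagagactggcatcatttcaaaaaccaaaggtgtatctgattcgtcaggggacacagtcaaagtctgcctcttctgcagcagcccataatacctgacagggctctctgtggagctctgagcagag

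The Hal window held the TCF/LEF letters on the opposite strand, first base 199 bases before the start, and the C/EBP letters 150 bases before it. The other 4 windows held none of the 5 motifs. Over all 32851 promoter windows in the table, RBPJ letters were in 6.38%, TCF/LEF in 3.73%, C/EBP in 10.8%, the cAMP response element in 1.79% and HNF4 in 0.47%. A match is a description of these letters and not a binding site.

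Cps1 makes carbamoyl phosphate from ammonia in the mitochondrion and is the entry step of the urea cycle. Its log2 levels were 5.65, 5.75 and 5.77 in GFP livers, 5.65, 5.63 and 5.56 in NICD1, 5.69, 5.80 and 5.56 in NICD2, and 5.66 and 5.63 in NICD1&2. The 4 groups overlapped. The log2 fold change from GFP was -0.11 in NICD1 (95% interval -0.32 to 0.10), -0.04 in NICD2 (-0.24 to 0.17) and -0.07 in NICD1&2 (-0.30 to 0.16).

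Otc joins carbamoyl phosphate to ornithine to give citrulline. Its levels were 6.60, 6.64 and 6.63 in GFP livers, 6.69, 6.64 and 6.61 in NICD1, 6.80, 6.55 and 6.64 in NICD2, and 6.80 and 6.94 in NICD1&2. Both NICD1&2 arrays were above all GFP and NICD1 arrays, and one NICD2 array reached the lower of them. NICD1&2 exceeded GFP by 0.25 (SE 0.10, limma adjusted p = 0.325). A second Otc probe, placed on a predicted transcript, went the other way in NICD1&2, with a log2 fold change of -0.25 (95% interval -0.74 to 0.23), so the probes of this gene disagree.

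Ass1 and Asl make argininosuccinate and split it to arginine in the cytosol. Ass1 levels were 9.09, 9.20 and 9.13 in GFP livers, 9.0, 9.0 and 8.84 in NICD1, 9.13, 9.01 and 9.17 in NICD2, and 9.17 and 9.45 in NICD1&2. Asl levels were 5.91, 5.93 and 5.86 in GFP livers, 5.86, 5.77 and 5.62 in NICD1, 6.07, 5.85 and 6.16 in NICD2, and 6.03 and 6.28 in NICD1&2. For Ass1 the 3 NICD1 arrays were the lowest of all 11, and for both genes NICD1&2 replicate 2 was the highest. From GFP, Ass1 differed by -0.19 in NICD1 (95% interval -0.43 to 0.04) and by 0.17 in NICD1&2 (-0.10 to 0.44). Asl differed by -0.15 in NICD1 (-0.42 to 0.12) and by 0.25 in NICD1&2 (-0.04 to 0.55). In NICD1&2, without replicate 2 and without replicate 1 of that group, Ass1 was at 0.028 and 0.31 and Asl at 0.128 and 0.379.

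**Figure D1:**
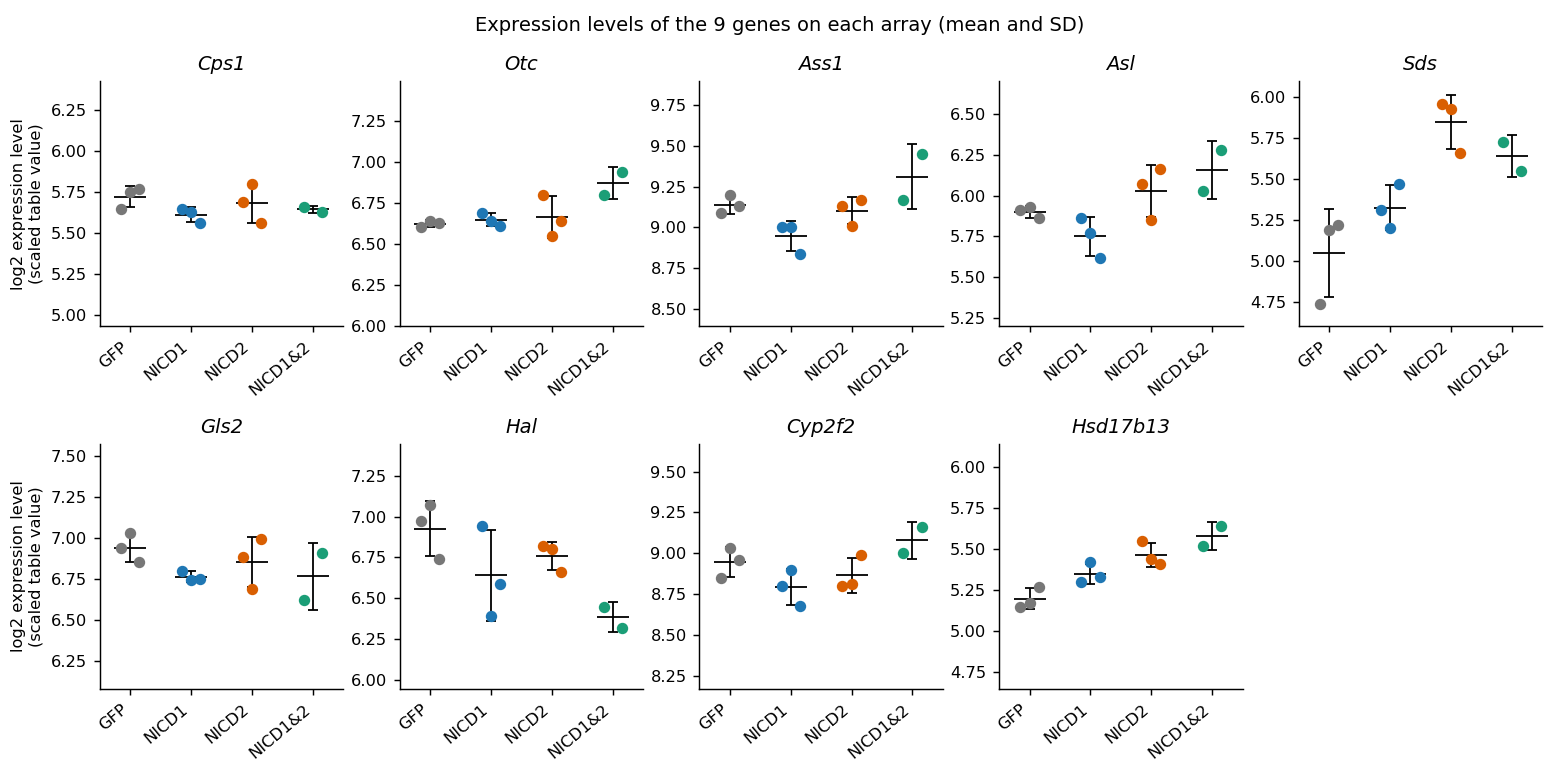
Log2 expression level (scaled table value, y axis) of each gene on each of the 11 arrays, by group (x axis); points are arrays, the long bar is the group mean and the error bar its SD (n = 3, and 2 for NICD1&2). Every panel spans the same height, so the 1.22 range of Sds and the 0.24 range of Cps1 can be compared by eye; Sds arrays of NICD2 and NICD1&2 all lie above those of GFP and NICD1.

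Sds deaminates serine to pyruvate and is strongly induced by glucagon and dietary protein. Its levels were 4.74, 5.19 and 5.22 in GFP livers, 5.31, 5.20 and 5.47 in NICD1, 5.96, 5.93 and 5.66 in NICD2, and 5.73 and 5.55 in NICD1&2. All NICD2 and NICD1&2 arrays were above all GFP and NICD1 arrays. NICD2 exceeded GFP by 0.80 (SE 0.16, 95% interval 0.45 to 1.15, limma adjusted p = 0.199). NICD1&2 exceeded GFP by 0.59 (SE 0.17, limma adjusted p = 0.223), and NICD1 by 0.28 (95% interval -0.08 to 0.63). The fold of NICD2, 1.74, was just under the 1.8 of the study's definition, and Sds passed that definition when GFP replicate 2, GFP replicate 3 or NICD2 replicate 3 was left out. GFP replicate 1 lay 0.45 below the next GFP array, and without it NICD2 exceeded GFP by 0.64 (limma adjusted p = 0.388).

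Gls2, the liver glutaminase, releases ammonia from glutamine beside Cps1. Its levels were 6.94, 7.03 and 6.85 in GFP livers, 6.80, 6.74 and 6.75 in NICD1, 6.88, 6.69 and 6.99 in NICD2, and 6.62 and 6.91 in NICD1&2. The 3 NICD1 arrays were below all GFP arrays, by 0.18 in the mean (95% interval of the difference -0.44 to 0.08), and the other groups overlapped GFP. The second Gls2 probe gave -0.17 in NICD1, -0.02 in NICD2 and -0.28 in NICD1&2.

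Hal removes the amino group of histidine, the first step of its breakdown. Its levels were 6.97, 7.07 and 6.74 in GFP livers, 6.94, 6.39 and 6.59 in NICD1, 6.82, 6.80 and 6.66 in NICD2, and 6.45 and 6.32 in NICD1&2. Both NICD1&2 arrays were below all GFP and NICD2 arrays, and NICD1 arrays were spread over most of the range. The log2 fold change of NICD1&2 was -0.54 (SE 0.17, 95% interval -0.92 to -0.16, limma adjusted p = 0.239). Hal thus lay opposite to Sds in these livers.

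Cyp2f2, a cytochrome P450 used as a periportal landmark, had levels of 8.85, 9.03 and 8.96 in GFP livers, 8.80, 8.90 and 8.68 in NICD1, 8.80, 8.81 and 8.99 in NICD2, and 9.0 and 9.16 in NICD1&2. No NICD group separated from GFP. The log2 fold change was -0.15 in NICD1 (95% interval -0.39 to 0.09), -0.08 in NICD2 (-0.32 to 0.16) and 0.13 in NICD1&2 (-0.13 to 0.40).

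Hsd17b13, a lipid droplet protein of hepatocytes, had levels of 5.15, 5.17 and 5.27 in GFP livers, 5.30, 5.42 and 5.33 in NICD1, 5.55, 5.44 and 5.41 in NICD2, and 5.52 and 5.64 in NICD1&2. All 8 arrays with an NICD vector were above all 3 GFP arrays. The log2 fold change was 0.15 in NICD1 (SE 0.09, limma adjusted p = 0.910), 0.27 in NICD2 (SE 0.09, limma adjusted p = 0.576) and 0.39 in NICD1&2 (SE 0.10, limma adjusted p = 0.186). Its second probe gave 0.18, 0.36 and 0.25 in the same order, with more spread within groups (SD 0.233 against 0.072).

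The counts over the 9 members can be read against all probes tested. Those include weaker probes, well above background on as few as 2 arrays, while the member probes passed on all. Among 27320 probes that passed on all arrays, 120 met the study's definition in NICD1, 225 in NICD2 and 581 in NICD1&2. Over the 36055 tested, on which the shares below rest, it was 802, 715 and 2247. All 3 comparisons use the same GFP arrays, so their counts are not independent of each other. In NICD1 against GFP, 3 members were higher and 6 lower, with a median log2 fold change of -0.15 against 0.02 over all probes. None had an unadjusted p under 0.05, against 5.48% of probes, and none met the study's definition, against 2.22%. In 4 of the 9 the groups did not overlap, against 12.4% of probes. Of these 4, Hsd17b13 was higher and Gls2, Ass1 and Asl were lower. All 9 intervals excluded a 1.8-fold change in either direction, as did 71.2% of all probes. The 8 hepatocyte markers described below moved alike in this comparison, with 2 higher, 6 lower and a median of -0.14.

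In NICD2 against GFP, 4 members were higher and 5 lower, with a median of -0.04 against 0.02 over all probes. Sds and Hsd17b13 had an unadjusted p under 0.05, against 6.81% of probes, and the same 2 were those whose groups did not overlap, against 13.4%. None met the study's definition, against 1.98% of probes. The interval excluded a 1.8-fold change for 8 of 9 members, all but Sds, and for 70.1% of probes.

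In NICD1&2 against GFP, 6 members were higher and 3 lower, with a median of 0.17, but the median over all probes was itself 0.12 and 65.0% of all probes were higher. Hal, Sds, Otc and Hsd17b13 had an unadjusted p under 0.05, against 14.8% of probes. With quantile normalization these were Hal, Hsd17b13 and Gls2. Without NICD1&2 replicate 2 the log2 fold change was -0.474 for Hal, 0.676 for Sds, 0.176 for Otc and 0.327 for Hsd17b13. Without NICD1&2 replicate 1 it was -0.607, 0.497, 0.315 and 0.448 in the same order. Groups did not overlap for 5 members, Hal, Sds, Otc, Hsd17b13 and Asl, against 34.5% of probes. None met the study's definition, against 6.23%, and the interval excluded a 1.8-fold change for 7 of 9 members, all but Sds and Hal, and for 61.0% of probes. With 2 or 3 arrays a group, the exact permutation test of a single gene cannot go below p = 0.1, which was its value for each of the 5.

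**Figure D2:**
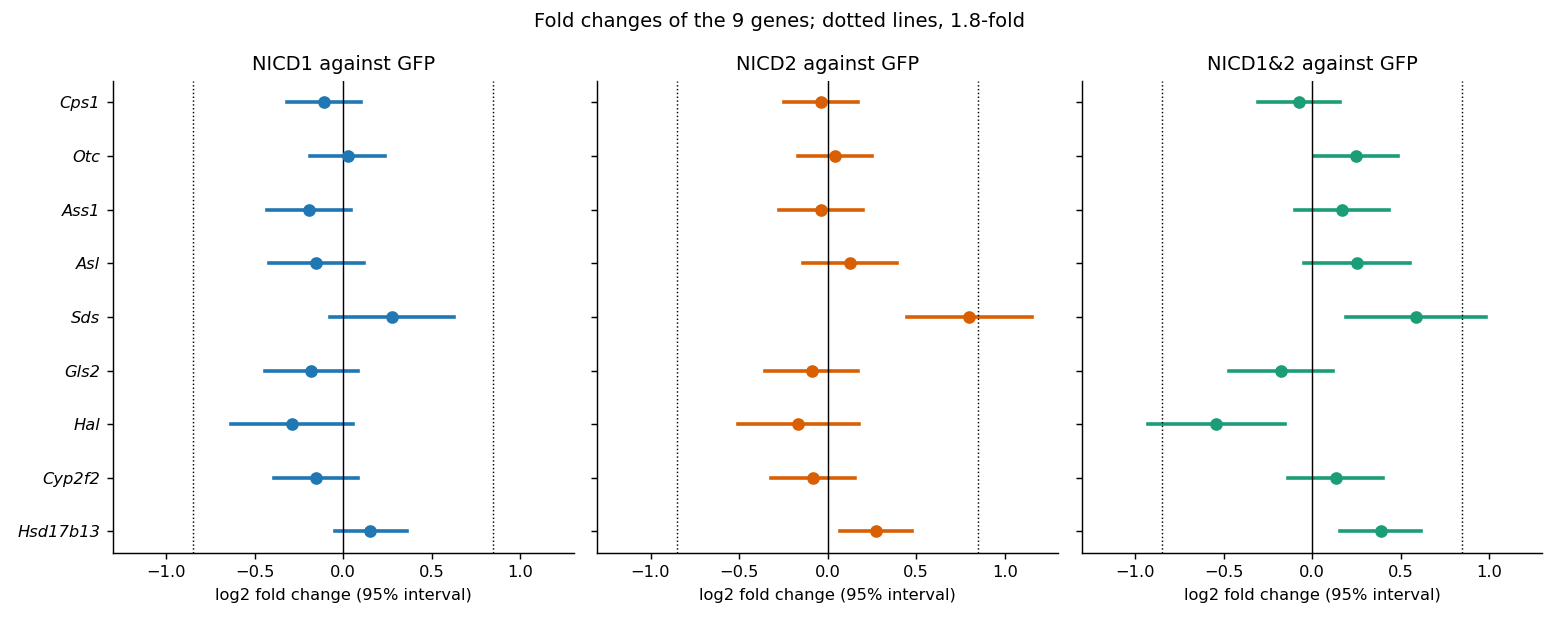
Log2 fold change from GFP (x axis) of each gene (y axis) in NICD1, NICD2 and NICD1&2 livers; points are limma estimates, lines 95% intervals, and dotted lines mark a 1.8-fold change. Only the intervals of Sds in NICD2 and of Sds and Hal in NICD1&2 reach past a dotted line.

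The direction of Cyp2f2 and Ass1 in NICD1&2 livers depended on how arrays were scaled. With quantile normalization, which removes the shift of all probes (median 0.01), Cyp2f2 went from 0.13 to -0.10 and Ass1 from 0.17 to -0.10, and the median of the members from 0.17 to -0.10. Sds, Hsd17b13, Otc and Asl remained above 0 and Hal, Gls2 and Cps1 below 0 under each of the 5 scalings tried, at log2 fold changes of 0.42 for Sds, 0.21 for Hsd17b13 and -0.70 for Hal with quantile normalization. Otc and Asl were reduced from 0.25 each to 0.068 and 0.072 by it.

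**Figure D3:**
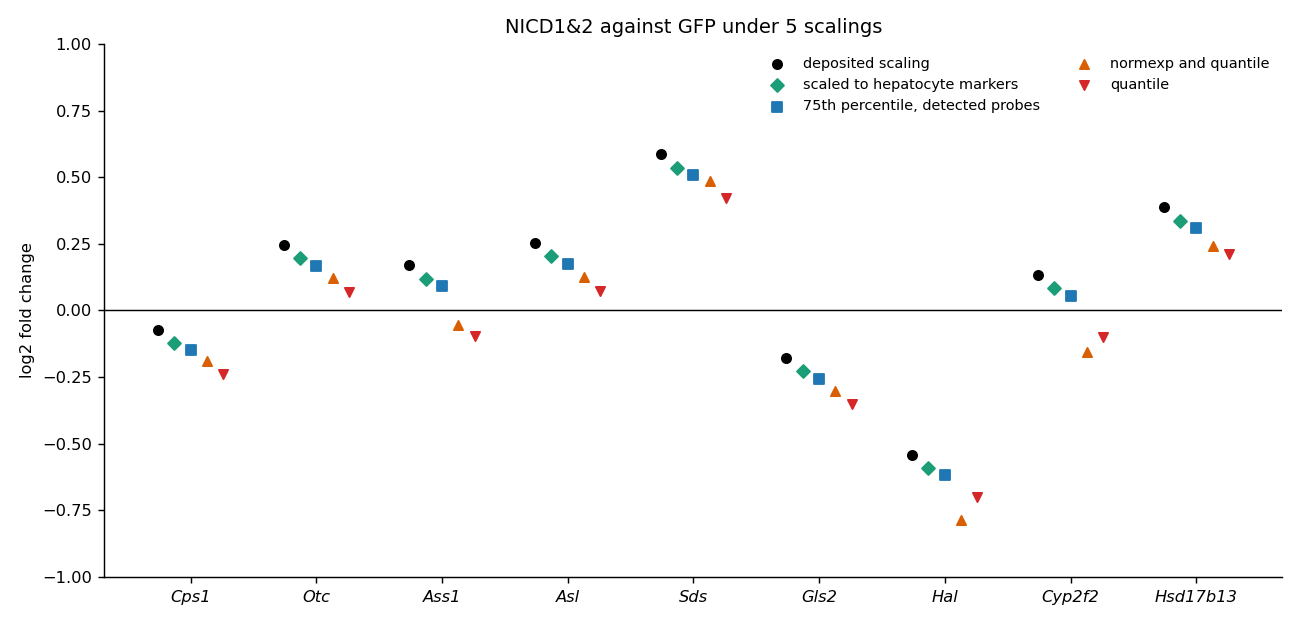
Log2 fold change of each gene (x axis) in NICD1&2 against GFP under 5 scalings of the arrays (symbols). Cyp2f2 and Ass1 lie on both sides of 0, at -0.10 with quantile normalization, while the other 7 genes keep their sign.

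Directly compared, all 9 members were lower in NICD1 than in NICD2 livers, with a median log2 difference of -0.12 against 0.00 over all probes. Sds (-0.52, 95% interval -0.88 to -0.17) and Asl (-0.28, -0.54 to -0.01) had an unadjusted p under 0.05, against 3.74% of probes. Groups did not overlap for 2 members, Sds and Ass1, against 9.31% of probes. None was called or met the study's definition, against 1.26% of probes, and 8 of 9 intervals excluded 1.8-fold, against 72.0%. The mean of 8 hepatocyte markers such as Alb was also lower in NICD1 than in NICD2 livers. It was 8.92 ± 0.14 (SD, n = 3) against 9.01 ± 0.09 (SD, n = 3). Of these markers 7 of 8 were lower, with a median of -0.11, while Hnf4a was higher, at 7.58 to 7.75 against 7.51 to 7.54. Arrays were also scaled to those markers, an alternative chosen after seeing the data. Then 5 of 9 members were lower in NICD1, with a median of -0.02. That scaling moves all probes alike, and the median over all probes went from 0.00 to 0.09, so the members' distance from it stayed as it was. With quantile normalization 7 of 9 members were lower, and their median of -0.017 lay close to the 0.007 over all probes.

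NICD1&2 against NICD1 is the effect of replacing the GFP vector by the NICD2 vector. Asl was higher by 0.41, Ass1 by 0.36, Cyp2f2 by 0.29 and Hsd17b13 by 0.23 in NICD1&2, each at an unadjusted limma p under 0.05, against 12.5% of probes. The lowest limma adjusted p was 0.358. The median over all probes was itself 0.10 here, and 63.5% of them were higher. The count of 4 members was 0 without NICD1&2 replicate 2 and 5 without NICD1&2 replicate 1, and with quantile normalization 6 of the 9 were below 0, Ass1 and Cyp2f2 among them at -0.007 and -0.048. NICD1&2 against NICD2 gave no member at that level, against 8.9% of probes, with log2 differences from -0.38 for Hal to 0.22 for Cyp2f2. The interaction of both vectors had an unadjusted limma p under 0.05 for Ass1 (0.40, 95% interval 0.04 to 0.76) and Cyp2f2 (0.37, 0.01 to 0.73), against 7.03% of probes, and the lowest limma adjusted p among the members was 0.702. The median interaction over all probes was 0.07, and 58.2% of them were above 0. With quantile normalization the interaction was 0.076 for Ass1 and 0.09 for Cyp2f2, and without NICD1&2 replicate 2 it was 0.259 and 0.288. No member had an interaction at an unadjusted limma p under 0.05 with the replicate number as a block or with arrays scaled to the hepatocyte markers. The same held without GFP replicate 2, NICD1 replicate 3 or NICD2 replicate 2.

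Few probes anywhere on the arrays passed the adjusted threshold of 0.05. They were 0.00832% of probes for NICD1, 0.0527% for NICD2 and 0.0998% for NICD1&2 against GFP, 0.00277% for NICD1 against NICD2, 0.0139% for NICD1&2 against NICD1 and 0.00277% for NICD1&2 against NICD2. A count of 0 among 9 members is therefore near the background.

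The 11 arrays came from 2 slides, each holding all 4 groups. On both slides the direction from GFP was the same for 9 of 9 members in NICD1 and 5 of 9 in NICD2. It was so for 8 of 9 in NICD1&2, and for 5 of 9 in NICD1 against NICD2. Each slide held 1 or 2 arrays of a group, and slide 2 had a single GFP array that all members share. Otc was counted in NICD1 at 0.001 on slide 2. The share over all probes was not computed, so these counts are only a description. In NICD2, Sds was above GFP by 0.98 on slide 1 and by 0.44 on slide 2, and Hsd17b13 by 0.34 and 0.13. In NICD1&2, Hal was at -0.57 and -0.42, Sds at 0.76 and 0.33, and Hsd17b13 at 0.37 on both slides. With the slide as a block, no member was called, and Sds in NICD2 stayed at 0.80 (limma adjusted p = 0.235).

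Some members varied together over the 11 arrays, which is a description since arrays share groups and scaling. Sds correlated with Hsd17b13 at r = 0.76. Ass1 correlated with Cyp2f2 at r = 0.91 and with Asl at r = 0.90. Otc correlated alike with Hsd17b13 (0.73), Asl (0.72) and Ass1 (0.71), so these pairs do not form separate sets. Hal ran against Hsd17b13 at r = -0.73. When each group's mean was removed, Ass1 and Asl still correlated at 0.90 and Ass1 and Cyp2f2 at 0.81. Gls2 then correlated at 0.87 with Asl and 0.82 with Ass1, against 0.42 and 0.46 over the arrays. Sds and Hsd17b13 went to 0.21 and Sds and Asl to -0.49. Cps1 had no correlation above 0.43 with another member over the arrays.

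**Figure D4:**
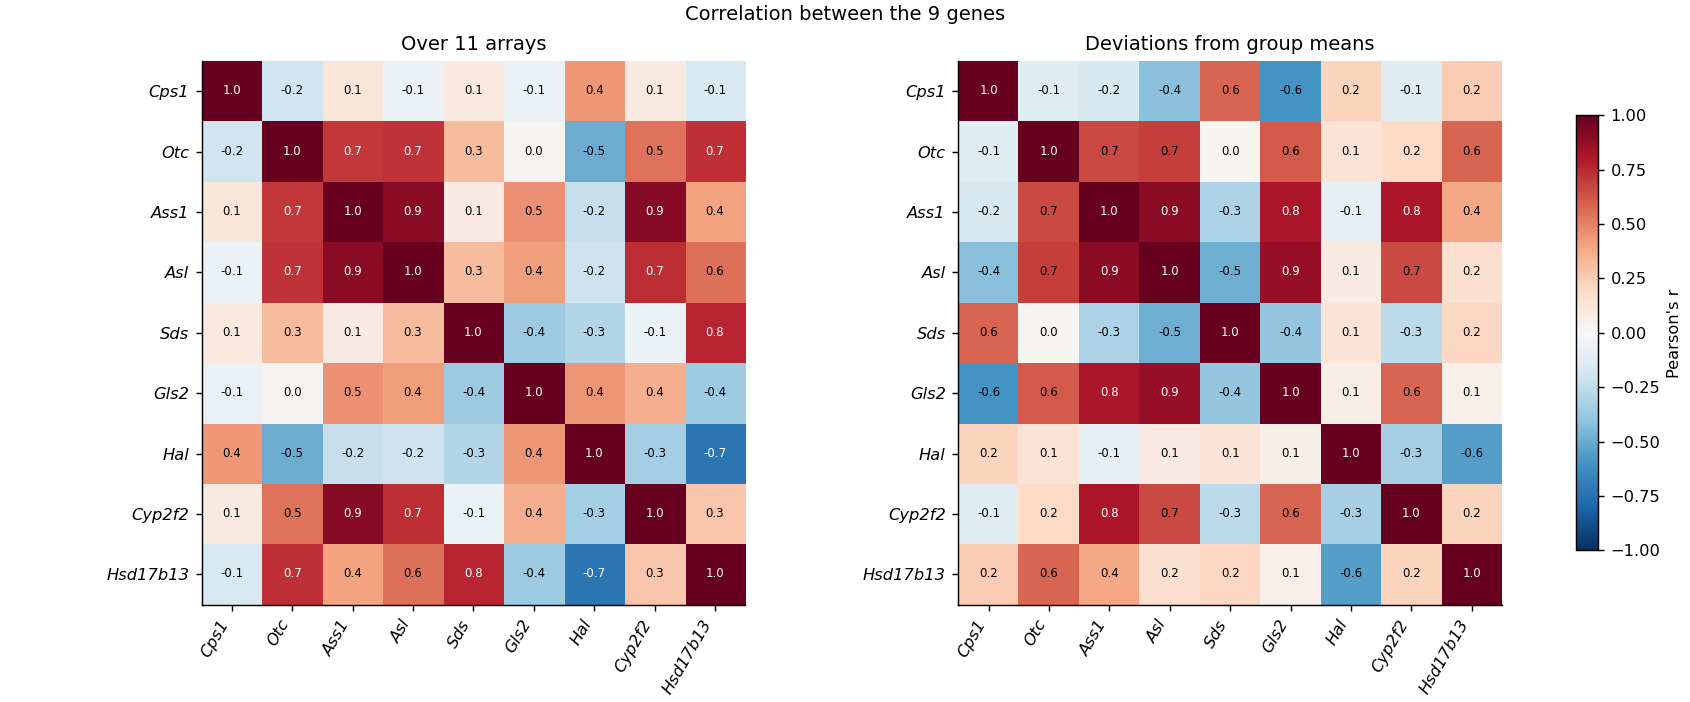
Pearson's r between the 9 genes over 11 arrays (left) and over deviations from group means (right), colour scale from -1 to 1. Ass1 with Asl stands at 0.90 in both panels, while Sds with Hsd17b13 is at 0.76 on the left and 0.21 on the right.

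The other probes closest to the mean standardized profile of the 9 members over 11 arrays were those of Lzic (r = 0.941), BC049762 (0.934), 2310034O05Rik (0.933), Mrps16 (0.93) and Trmt2b (0.93). Asl (0.92) and Ass1 (0.91) had the highest r with that profile among the members and Hal (-0.09) the lowest, where every member is itself part of the profile.

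Ass1, Asl and Cyp2f2 were also the members with the highest r with the mean of the 8 hepatocyte markers, Cyp2f2 at 0.63, Asl at 0.45 and Ass1 at 0.44. That mean was 8.98 ± 0.05 (SD, n = 3) in GFP, 8.92 ± 0.14 (n = 3) in NICD1, 9.01 ± 0.09 (n = 3) in NICD2 and 9.03 ± 0.07 (n = 2) in NICD1&2. Of these markers, Apob was at 7.05 on NICD1&2 replicate 2 against 7.81 to 8.25 on the other arrays. Hnf4a was higher in NICD1, at 7.58 to 7.75, than in GFP, at 7.35 to 7.46, where the mean of the markers was lower. All 8 markers were well above background on all arrays, and their log2 summed level ran from 12.01 to 12.35. Its part in the members' differences was not tested. Bile duct markers moved with the NICD groups: the log2 summed level of the 7 measured of 8 was 3.01 to 3.46 in GFP and 4.56 to 5.37 in the NICD groups. Spp1 alone averaged 2.89 in GFP, 4.60 in NICD1, 4.70 in NICD2 and 5.12 in NICD1&2 and met the study's definition in all 3 NICD groups and was called in the last 2 of these against GFP in limma. The Spp1 call was lost in NICD2 without GFP replicate 1 or 2, NICD1 replicate 1 or 3, or NICD2 replicate 2 or 3, and in NICD1&2 without GFP replicate 2 or NICD1&2 replicate 2, while its log2 fold change stayed at 1.685 to 1.967 and 2.068 to 2.397. Sox9, a bile duct transcription factor, met the definition in NICD1&2 (1.16, SE 0.31), and without NICD1&2 replicate 1 it was at 0.625. Sctr was not well above background on any array. Spp1 also occurs in other liver cells, and its part in the members' differences was not tested. Kupffer cell, endothelial, stellate, lymphocyte, red blood cell and exocrine pancreas lists had 0 called genes in each NICD group against GFP. The study's definition was met by Marco of the Kupffer cell list in NICD1 (-0.88, SE 0.45, groups overlapping), by Lyve1 of the endothelial list in NICD2 (0.86, SE 0.19) and NICD1&2 (0.93, SE 0.22), and by Cd79a of the lymphocyte list, lower in NICD1, whose probe was well above background on 7 of 11 arrays, so that its difference is not given. Each of these fell short of 1.8-fold when single arrays were left out, with lowest sizes of -0.592 for Marco without GFP replicate 1 and 0.727 and 0.804 for Lyve1 without GFP replicate 2. Kupffer cell genes were lower than GFP for 6 of 6 in NICD1 and 5 of 6 in NICD2, with medians of -0.24 and -0.23. The log2 summed level of that list was 5.79 to 6.29 in GFP and 5.79 to 5.97 in NICD1. It was 5.84 to 6.03 in NICD2 and 6.18 to 6.34 in NICD1&2. Lymphocyte genes were lower than GFP for 5 of 6 in NICD1 and 6 of 6 in NICD2. Their log2 summed level was 1.82 to 2.0 in GFP and 1.65 to 1.75 in NICD1. It was 1.73 to 1.79 in NICD2 and 1.95 to 2.02 in NICD1&2. Red blood cell genes were lower for 3 of 3 in NICD1 and NICD2, and higher for 3 of 3 in NICD1&2. The part of these lists in the members' differences was not tested.

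Beside the 9 members, the urea cycle needs partners for its substrates and activator. Of 10 partner genes, all were measured, none was called, and only Slc25a2, an ornithine carrier, met the study's definition, in NICD1&2 (0.85, SE 0.34, groups overlapping). Its probe was well above background on 10 of 11 arrays, and it fell short of 1.8-fold without GFP replicate 1, GFP replicate 2 or NICD1&2 replicate 2, with a lowest value of 0.665. Nags, which makes the activator of Cps1, was at -0.15, -0.03 and 0.09 in NICD1, NICD2 and NICD1&2, and Slc25a15, the main ornithine carrier, at -0.07, 0.06 and -0.29. Their median was 0.02, 0.06 and 0.12, against 0.02, 0.02 and 0.12 over all probes.

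Of 25 other enzymes and carriers of amino acid breakdown, none was called and none met the study's definition against GFP. They were lower than GFP for 21 of 25 in NICD1 (median -0.08) and higher for 19 of 25 in NICD2 (median 0.08). In NICD1&2, 12 were higher and 13 lower, with a median of -0.001 against 0.12 over all probes. Between the single vectors, 22 of 25 were lower in NICD1 than in NICD2 (median -0.21, against 0.00 over all probes). Among 18 other periportal genes none was called. Hsd17b6 met the study's definition in NICD1&2 (2.14-fold, SE 0.18 on the log2 scale), and Mfsd2a, a lysophospholipid carrier, did in NICD2 (1.22, SE 0.27) and in NICD1&2 (1.01, SE 0.31).

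Of 18 perivenous genes, none was called, and 4 were higher and 14 lower than GFP in NICD1, and 9 and 9 in NICD2. Axin2, a Wnt/β-catenin target, met the definition in NICD1 (-0.92, SE 0.36) and NICD2 (-1.36, SE 0.36), and Tbx3, another target of this pathway, in NICD2 (-1.12, SE 0.33). GFP replicate 1 was the highest array for both, and without it Axin2 in NICD1 was at -0.56 and Tbx3 in NICD2 at -0.741, short of 1.8-fold. Axin2 in NICD1 also fell just short without NICD1 replicate 3. In NICD1&2, Axin2 was at -0.39 (SE 0.40), with groups overlapping. Its probe was weak, at -4.13 on NICD2 replicate 1, where the lowest value well above background was -4.48. Of 18 zonation regulators, 10 were higher and 8 lower than GFP in NICD1, and 8 and 10 in NICD2. Among them Znrf3 was at 0.69 to 0.98 on the NICD arrays against 0.54 to 0.68 in GFP. Glul, the perivenous glutamine synthetase that complements the urea cycle, was at -0.06, -0.10 and 0.02 (SE 0.11, 0.11 and 0.13). The perivenous medians were -0.12, -0.03 and 0.02 in NICD1, NICD2 and NICD1&2, beside -0.15, -0.04 and 0.17 for the members. The 18 other periportal genes had -0.09, 0.004 and 0.149, and all probes 0.02, 0.02 and 0.12. With quantile normalization the members' median in NICD1&2 was -0.10, and no rescaled median was taken for the other lists. The difference between these lists was not tested.

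**Figure D5:**
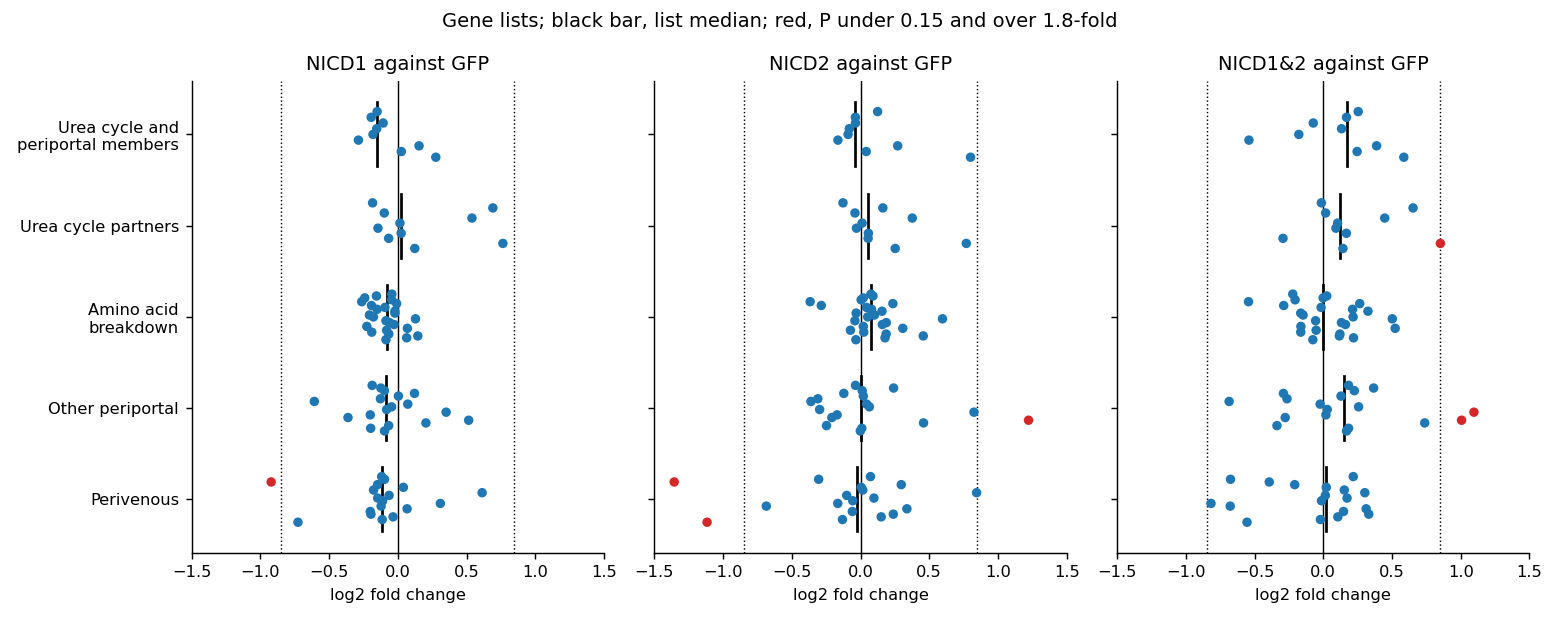
Log2 fold change from GFP (x axis) of single genes (points, 1 per gene) in 5 gene lists (y axis); black bars are list medians, dotted lines 1.8-fold, and red points meet the study's definition. No red point lies among the 9 members or the amino acid breakdown genes; Axin2 and Tbx3 are the perivenous genes below the left line in NICD2.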

How the data were processed

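RNA of 11 mouse livers was hybridised to Agilent 1-colour arrays of 62976 spots. The deposited scanner files hold intensities from Feature Extraction 11.5.1.1, background-subtracted and detrended by the authors' software, and the deposited table gives log2 signals that the authors scaled to every array's 75th percentile in GeneSpring. Each table column was checked against the scanner signal and differed by a constant per array. The table was the main source and the scanner flag the detection call. On each array 3671 control spots were left out. Of the rest, 57.0% to 62.0% passed the flag for a signal well above background, and saturation was flagged for 0. The number of arrays limits the precision. The table has 0 columns of other samples.

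Probes that passed the detection flag on 2 or more arrays (36055 of 56605) entered 1 limma 3.58.1 fit (R 4.3.3) with a mean per group and empirical Bayes moderation. P-values were adjusted by Benjamini-Hochberg over all of them. The paper names no test for the arrays. A gene was called at an adjusted p under 0.05. Gene names came from RefSeq accessions, which named 32994 probes. A gene with several probes was represented by the one with the highest mean, and every probe of a member was reported. Other genes of the lists were named where called, where they met the study's definition, or as Nags, Slc25a15 and Glul. Znrf3 and the markers Alb, Apob, Hnf4a and Sctr were named as a description. The 5 probes of likest profile were named. The fit was tested on simulated data. Exact permutation tests are two-sided.

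Alternatives were other scalings, background correction (normexp, offset 50), filters, the compared groups alone, slide and replicate blocks, array weights, other probes, a stricter definition (P under 0.05 and over 2-fold) and leaving out each array. Members and lists were chosen with earlier results of these data known. 1 gene that the rule covers and 1 of a comparison list are not reported here.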

Additional observations from a re-analysis of the deposited data

How the results depend on the processing

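No member was called in any of the 6 pairwise comparisons under any of the alternatives, and the lowest adjusted p of a member in limma was 0.0852. Of 1461 fold changes and interactions of members recomputed, all but 64 kept their direction. Many of these could not change by construction, so the count does not measure how stable the directions are. With a mean per group, other filters, the compared groups alone and leaving out an array of another group leave a fold change as it was. The mean of a gene's probes also changes nothing for a gene with a single probe. In NICD1 against GFP, Otc reversed with its other probe (-0.071) and with the mean of its probes (-0.023). In NICD1&2 against GFP, Otc reversed with the other probe (-0.254) and the mean (-0.004), Cyp2f2 with quantile normalization (-0.101) and with normexp and quantile (-0.155), and Ass1 with both (-0.096 and -0.054). In NICD1 against NICD2, Cyp2f2 reversed with quantile (0.085), normexp and quantile (0.024) and hepatocyte scaling (0.021), Otc with these (0.064, 0.064 and 0.076) and with the 75th percentile over probes detected on all arrays (0.01), and Gls2 (0.002) and Cps1 (0.022) with hepatocyte scaling. In NICD1&2 against NICD1, Cyp2f2 reversed with quantile (-0.048) and normexp and quantile (-0.075), Ass1 (-0.007) and Otc (-0.008) with quantile, Otc with its other probe (-0.183), and Cps1 and Gls2, both near 0, with quantile (-0.16 and -0.231), normexp and quantile (-0.11 and -0.19), hepatocyte scaling (-0.083 and -0.115) and the 75th percentile over probes detected on all arrays (-0.04 and -0.072), Gls2 also with its other probe (-0.109) and the mean (-0.053). In NICD1&2 against NICD2, quantile reversed Asl (-0.025), Ass1 (-0.014) and Hsd17b13 (-0.014), normexp and quantile Cyp2f2 (-0.051), the other probe Otc (-0.289) and Hsd17b13 (-0.106), and the mean Otc (-0.043). In the interaction, quantile reversed Gls2 (-0.127), Cps1 (-0.096) and Otc (-0.021), normexp and quantile Gls2 (-0.096) and Cps1 (-0.063), hepatocyte scaling Cps1 (-0.021), the other probe Gls2 (-0.088) and Otc (-0.219), and the mean Otc (-0.02). The causes were not tested. Leaving out each array in turn gave ranges that crossed 0 for Cps1 (-0.095 to 0.024), Otc (-0.027 to 0.096) and Ass1 (-0.071 to 0.007) in NICD2 against GFP, for Hal (-0.274 to 0.004) and Otc (-0.071 to 0.052) in NICD1 against NICD2, for Gls2 (-0.143 to 0.149) in NICD1&2 against NICD1, for Gls2 (-0.234 to 0.059) and Cps1 (-0.096 to 0.022) in NICD1&2 against NICD2, and for Hal (-0.214 to 0.064), Gls2 (-0.052 to 0.24) and Hsd17b13 (-0.097 to 0.023) in the interaction.

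The median of the members moved with quantile normalization to -0.096 in NICD1&2 against GFP, -0.017 in NICD1 against NICD2, -0.008 in NICD1&2 against NICD1 and -0.025 in NICD1&2 against NICD2. With normexp and quantile it was -0.054, -0.021, 0.03 and -0.051 in the same order. With hepatocyte scaling, added after seeing the data, it was -0.024 in NICD1 against NICD2 and 0.115 in NICD1&2 against NICD1, where the median over all probes moved alike, and with the mean of each gene's probes 0.152 in NICD1&2 against NICD1 and -0.036 in NICD1&2 against NICD2. In NICD1 against GFP it went from -0.151 to -0.08 with both quantile settings and -0.084 with hepatocyte scaling, in NICD2 against GFP from -0.037 to -0.064 with quantile, and in NICD1&2 against GFP from 0.169 to 0.091 with the 75th percentile over probes detected on all arrays. Without each array it ran from -0.161 to -0.086 in NICD1, from -0.063 to 0.024 in NICD2, from 0.052 (without NICD1&2 replicate 2) to 0.31 (without NICD1&2 replicate 1) in NICD1&2, from -0.131 to -0.093 in NICD1 against NICD2, from 0.173 to 0.29 in NICD1&2 against NICD1 and from 0.004 to 0.177 in NICD1&2 against NICD2. The count of members that met the study's definition ran from 0 to 1 in NICD2, with Sds the 1, and stayed at 0 elsewhere.

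Replicate numbers are shared between groups. Same-numbered arrays deviated together at r over 0.1 in 6 of 15 pairs (range -0.414 to 0.17, median 0.0365). For arrays of other numbers it was 7 of 30 pairs (range -0.288 to 0.459, median 0.0101). Of 11 arrays, 5 correlated best with their own number, and the value expected without pairing was not computed. With the replicate block, 0 members were called, and the median was 0.159 in NICD1&2 and -0.037 in NICD2. Members at an unadjusted limma p under 0.05 went from 4 to 3 in NICD1&2 against GFP (without Otc). They went from 2 to 1 in NICD1 against NICD2 and from 4 to 2 in NICD1&2 against NICD1. In NICD1&2 against NICD2 they went from 0 to 1, and in the interaction from 2 to 0.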

Other observations

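The feeding state list did not move one way. Of its 9 genes, 0 were called. Irs2, an insulin receptor substrate, met the study's definition in NICD2 (-0.87, SE 0.36, groups overlapping), and was at -0.496 without GFP replicate 3. Hes1, a Notch target among the 18 zonation regulators, met it in NICD2 (1.64, SE 0.45) and NICD1&2 (1.36, SE 0.50) but in NICD1 was at -0.03 (SE 0.45, groups overlapping), with a difference between NICD1 and NICD2 of -1.67 (SE 0.45). No gene of that list was called.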
